A study of Mus musculus with 19 samples.

Results

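The SR and hnRNP splicing factor genes are the genes counted under a symbol of the form Srsf plus a number or Hnrnp plus letters and numbers, with pseudogene symbols left out. Of 54352 genes in the count files, 31 fit that rule, 11 of them SR genes and 20 hnRNP genes, and 2 pseudogene symbols were not taken. They were followed in all 19 libraries of the series. Of the 31 genes, 30 passed the filter on low counts in every comparison. The exception was Srsf12, which had between 0 and 16 counts per library and is not tested below.

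SR proteins carry RNA recognition motifs and a tail rich in arginine and serine repeats. They bind exonic enhancers on pre-mRNA and help U1 snRNP and U2AF recognize splice sites, and they travel with the mRNA to the cytoplasm. hnRNP proteins coat nascent transcripts, often repress exons, and also act in mRNA stability, transport and nuclear organization. Exon choice follows the balance between both families, and many of these genes limit their own mRNA through exons that send it to nonsense-mediated decay. In blood formation the family is known from SRSF2, which is recurrently mutated in myelodysplastic syndromes.

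The study asked what the lncRNA Spehd does in blood progenitors. Stem cells from C57BL6 donor mice were transduced with a vector that makes an shRNA and the reporter zsGreen from a doxycycline-inducible Tet promoter, with the transactivator under the SFFV promoter. Adult C57BL/6-CD45.1; cKit-w41 recipients, irradiated below a lethal dose and given no competitor cells, were left for 10 weeks and then fed doxycycline for 6 days. zsGreen+ LSK cells (KLS in the labels), the compartment of stem cells and multipotent progenitors, and common myeloid progenitors (CMPs) were sorted from bone marrow. The control shRNA against Renilla luciferase gave 4 CMP and 4 LSK libraries. The first Spehd shRNA, called sh10 here, gave 3 CMP and 3 LSK libraries, and the other, sh20, gave 2 CMP and 3 LSK libraries. The controls thus carried the vector, the transplant and doxycycline as well. The labels do not say that each library came from a separate animal, so p-values measure the spread between these libraries. No counted gene is named Spehd, and its knockdown was not measured here.

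Libraries held from 3647318 to 5965155 counts on genes, after duplicate reads had been removed by the authors. Every CMP knockdown library (4918631 counts or more) was deeper than every CMP Renilla library (4314959 or fewer). The sorted populations were checked with markers. In CMPs with Renilla shRNA, 8 of 10 LSK markers were lower than in LSK cells by edgeR, Ly6a (Sca-1) among them at 3.11 to 7.6 CPM (counts scaled to a common library size) against 39.73 to 60.32. Of 12 CMP markers, however, 10 were lower and only Gata1 was higher in CMPs, with Mpo at 292.5 to 427.8 CPM in CMPs and 476.9 to 613.9 in LSK cells. The CMP markers thus went largely against the label, and "CMP" below names the sort gate. All levels are relative to the other RNA of a library, so fewer cells of a type and less RNA per cell cannot be told apart.

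The guides of both Spehd shRNAs are shown because the comparisons turn on which hairpin was used. The capitals mark the seed, bases 2 to 8 from the 5′ end, by which a guide can also pair with other mRNAs. They were read from the study's list of hairpin oligos.

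sh10 guide: tACAAAGTcagcttttcctctc

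sh20 guide: tATGCTATgacaacccagggca

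No GENCODE vM21 transcript holds the target of either guide, so its genome position is not given here. A 7-base match to the sh10 seed was present in the longest annotated 3′ UTR of 12 of the 31 genes, and in 19.7% of 11908 tested genes with such a UTR. For sh20 it was 5 genes (Hnrnpa3, Hnrnpc, Hnrnpd, Hnrnpu and Srsf7), against 9.02%, and for the Renilla guide 2 genes, against 8.75%. Over all tested genes in CMPs, the median log2 fold change with sh20 was 0.04 for those with an sh20 seed match and 0.01 for those without, and with sh10 it was 0.07 and -0.02. A match is a description of the letters in the UTR and not of binding.

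The 200 bases before the RefSeq start are shown for the 4 genes with the smallest p in the sh20 comparison in CMPs, on GRCm38.p6 and all on the minus strand. Capitals mark the GC box GGGCGG, the CCAAT box and the ETS core CCGGAA, each on either strand. Srsf2 (chr11:116853095-116853294) lies in introns of Mettl23 and Mfsd11 of the other strand, and 78 bases of the Hnrnpd window (chr5:99978939-99979138) are exonic in 4930524J08Rik of the other strand. The windows of Hnrnpu (chr1:178337816-178338015) and Hnrnpab (chr11:51606882-51607081) lie in no annotated gene.

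Srsf2: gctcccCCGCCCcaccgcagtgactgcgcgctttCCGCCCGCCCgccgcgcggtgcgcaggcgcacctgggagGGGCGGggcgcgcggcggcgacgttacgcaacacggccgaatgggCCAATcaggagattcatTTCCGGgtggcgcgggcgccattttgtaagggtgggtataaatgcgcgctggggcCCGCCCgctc

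Hnrnpu: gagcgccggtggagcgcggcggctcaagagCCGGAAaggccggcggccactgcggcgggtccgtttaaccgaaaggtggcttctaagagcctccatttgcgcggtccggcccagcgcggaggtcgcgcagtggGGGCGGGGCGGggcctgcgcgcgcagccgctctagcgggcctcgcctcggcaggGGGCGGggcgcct

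Hnrnpab: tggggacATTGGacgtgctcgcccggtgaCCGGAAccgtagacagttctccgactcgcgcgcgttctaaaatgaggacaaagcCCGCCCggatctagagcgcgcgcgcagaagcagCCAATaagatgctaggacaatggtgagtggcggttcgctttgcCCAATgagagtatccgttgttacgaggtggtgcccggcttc

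Hnrnpd: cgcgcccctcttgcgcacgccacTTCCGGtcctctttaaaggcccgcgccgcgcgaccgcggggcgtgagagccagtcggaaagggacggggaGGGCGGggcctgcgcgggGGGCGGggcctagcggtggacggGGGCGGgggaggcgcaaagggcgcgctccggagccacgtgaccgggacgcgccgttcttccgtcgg

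RefSeq gave such a window for 29 of the 31 genes, taking the first listed start. These promoters were rich in G and C, with a median of 67% (range 49 to 80) against 61% over 10118 promoters of tested genes. The GC box was found in 21 of 29, against 56.1% of the tested genes' promoters. The CCAAT box was found in 14, against 33%, and the ETS core in 9, against 20.9%. All 4 promoters shown hold 1 ETS core, with 5 GC boxes in Srsf2, 3 each in Hnrnpu and Hnrnpd, and 1 in Hnrnpab. The TATA box letters TATAAA were in 2 of 29, Srsf2 being one, against 4.52%. No match says only that these letters are not in the window.

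Levels were compared between genes per exonic base and scaled to the same sum in each library (TPM, exonic lengths from GENCODE vM21). Hnrnpab, an A/B-type hnRNP that binds and transports mRNA, stood highest at 551 ± 47.4 TPM (SD, n = 19 libraries, all groups together). Srsf2 (SC35), which binds exonic enhancers, followed at 437 ± 48, then Srsf7 (9G8), which also carries a zinc knuckle, at 386 ± 34.6. Srsf9 (SRp30c) stood at 375 ± 30.4, within the spread of Srsf7. Srsf1 (SF2/ASF), the founding SR protein, stood at 282 ± 40.7 and did not stand apart from Srsf5 at 272 ± 28.3 or Srsf6 at 271 ± 23.6. Srsf2 is at chr11:116849901-116853094 and Hnrnpab at chr11:51600100-51606847. Hnrnpa2b1 came eighth at 254 ± 25.7 TPM, above 95.3% of the genes tested.

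The lowest tested genes were Hnrnpa3 at 6.26 ± 1.42 TPM, Hnrnpul2 at 14.6 ± 4.92 and Hnrnpa1 at 21.2 ± 4.58. Hnrnpa1 and Hnrnpa3 are read with caution, since reads that align to more than 1 place were not counted. Of the 50-base windows in the Hnrnpa1 transcripts, 46.7% also occur in transcripts of 20 genes elsewhere, and for Hnrnpa3 it is 27.6% and 45 genes. The same share was 43.2% for Hnrnpf, 31.5% for Srsf3, 23.6% for Srsf5, 20.8% for Hnrnpk, 15.9% for Hnrnph2 and 12.5% for Srsf10. Antisense exons can add reads where strand was not kept. Srsf4 shares 1532 exonic bases with Gm12992, Hnrnpab 809 with Phykpl, Hnrnpu 804 with Cox20, Hnrnpr 715 with Gm27022, Srsf2 460 with Mettl23 and 288 with Mfsd11, Hnrnpf 410 with 4933440N22Rik and 396 with Gm43863, Hnrnpd 385 with Gm17092 and Hnrnpk 330 with Rmi1, and 3 other members share fewer. On their own strand, Hnrnpm shares 1169 exonic bases with March2 and Hnrnpul2 360 with AC129217.1.

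The 31 genes together took from 0.638% to 0.822% of the counts of a library. In CMPs the share was 0.790% to 0.822% with Renilla shRNA, 0.733% to 0.764% with sh10 and 0.674% to 0.716% with sh20, and these ranges did not overlap. In LSK cells it was 0.720% to 0.810% with Renilla, 0.638% to 0.695% with sh10 and 0.677% to 0.715% with sh20. The deeper libraries tended to have the lower shares. The CMP Renilla libraries and LSK Renilla replicate C, at 3647318 counts the shallowest of all, had the highest shares, and CMP sh20 replicate B, the deepest, had one of the lowest. Srsf2 shows it most plainly: its raw count stayed between 1511 and 1715 in all 19 libraries while their totals ran from 3647318 to 5965155. Hnrnpab stayed between 1729 and 2104 counts. LSK sh10 replicate B stood apart, with the lowest share, 0.638%, at a total of 4707668. Depth and shRNA cannot be told apart in CMPs, where the totals of the groups do not overlap.

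**Figure D1:**
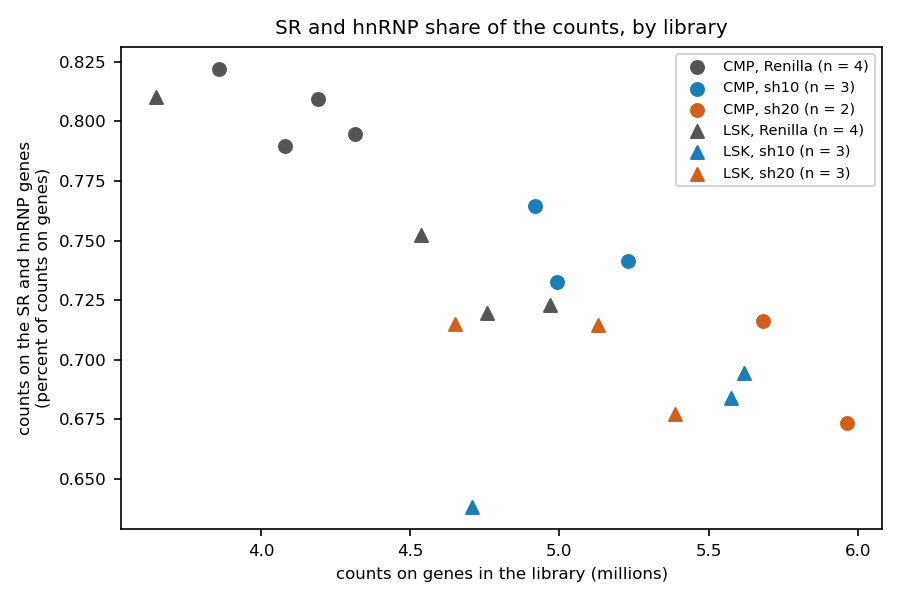
Each point is 1 of the 19 libraries, with its total counts on genes on the x axis and the percent of those counts on the 31 SR and hnRNP genes on the y axis; circles are CMPs, triangles LSK cells, and colours the shRNA. The 4 CMP Renilla libraries lie at the upper left and both CMP sh20 libraries at the right, while LSK sh10 replicate B lies lowest at 0.638%.

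The first question was whether either Spehd shRNA changed these genes in CMPs. With sh20, 8 of the 30 tested genes fell against Renilla and none rose at a false discovery rate (FDR) of 0.05 (edgeR, all CMP groups in one fit), while 4.27% of the 13824 genes tested fell and 1.9% rose. The 8 were Hnrnpu, Srsf2, Hnrnpab, Hnrnpd, Hnrnpm, Hnrnpk, Hnrnpa2b1 and Srsf7, by 0.26 to 0.45 on the log2 scale. The median over the 30 genes was -0.19, against 0.01 over all genes tested and -0.10 over the 1087 tested genes with a mean of at least 200 CPM. All 8 were among the 19 members that reach this mean, whose median was -0.22, and the median of the 11 weaker tested members was 0.04. DESeq2 called 10 members lower, against 6.51% of genes. Leaving out Renilla replicate B brought the 8 down to 5, where 329 of 13720 genes were lower. Leaving out sh20 replicate B leaves 1 sh20 library, and the median of the 30 genes was then -0.12. With an offset that removes trends with counts per exonic base, 4 were called lower, against 292 of 13742 genes. The median was then -0.06, against 0.02 over all genes. Without a filter 5 were lower, against 585 of 29978 genes. With the replicate letter as a block 0 were called, as were 0 of 13824 genes.

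Hnrnpu (SAF-A, chr1:178321108-178337797) anchors chromatin and RNA to the nuclear scaffold. Its level was 912, 865, 841 and 860 CPM in CMP Renilla replicates A to D, 803, 746 and 765 in sh10 A to C, and 638 and 673 in sh20 B and C. No CMP knockdown library reached the lowest Renilla library, and both sh20 libraries lay below all sh10 libraries. Its fold change with sh20 was -0.39 ± 0.05 (log2 ± SE, adjusted p = 0.0093).

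Srsf2 stood at 433, 401, 380 and 402 CPM in CMP Renilla A to D. It was 356, 341 and 347 with sh10 and 291 and 294 with sh20. Here too the 3 groups did not overlap, in the order Renilla, sh10, sh20. The change with sh20 was -0.45 ± 0.06 (adjusted p = 0.0093 by edgeR), the largest fall of the 30 genes in this comparison.

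Hnrnpab stood at 484, 471, 438 and 477 CPM with Renilla. It was 428, 413 and 423 with sh10 and 357 and 369 with sh20. Every sh20 library was lower than every other CMP library, and the change was -0.35 ± 0.05 (adjusted p = 0.00971 by edgeR). Hnrnpd (AUF1), which binds AU-rich elements and speeds mRNA decay, stood at 342, 339, 329 and 330 CPM with Renilla, 322, 305 and 313 with sh10 and 264 and 262 with sh20. It changed by -0.34 ± 0.05 (adjusted p = 0.00971).

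Hnrnpm, a component of spliceosomal complexes that binds GU-rich RNA, stood at 483, 460, 442 and 453 CPM with Renilla, 429, 434 and 429 with sh10 and 347 and 375 with sh20. It changed by -0.33 ± 0.05 (adjusted p = 0.011 by edgeR). Hnrnpk, which binds poly(C) stretches, stood at 294, 300, 273 and 288 CPM, then 267, 259 and 258, then 225 and 239 in the same groups. Its change was -0.30 ± 0.06 (adjusted p = 0.0225). In both genes the knockdown libraries lay below the Renilla libraries, and sh20 below sh10.

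Hnrnpa2b1, which binds and sorts RNAs and takes part in microRNA processing, stood at 504, 500, 474 and 480 CPM with Renilla, 447, 415 and 423 with sh10 and 403 and 407 with sh20. It changed by -0.26 ± 0.05 with sh20 (adjusted p = 0.0227 by edgeR). Srsf7 stood at 445, 392, 370 and 414 CPM with Renilla, 364, 354 and 359 with sh10 and 319 and 335 with sh20, a change of -0.30 ± 0.07 (adjusted p = 0.0465). These too had no knockdown library as high as a Renilla library.

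Srsf5 (SRp40), an SR protein linked to mRNA export, stood at 354, 315, 308 and 306 CPM with Renilla, 278, 269 and 263 with sh10 and 257 and 269 with sh20. Its groups with and without knockdown were as separate, but the change with sh20 was -0.27 ± 0.07 with an adjusted p of 0.0567 by edgeR. Of the other tested genes, Srsf6 (adjusted p = 0.0525) and Srsf5 were nearest to the threshold. The 4 F/H genes, which bind G tracts, lay between -0.24 and 0.13 with sh20, and none was called.

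With sh10 the median over the 30 genes was -0.09. None of the 30 genes was called by edgeR at an FDR of 0.05, against 137 of 13824 genes lower and 135 higher. At an unadjusted p under 0.05 by edgeR, 9 were lower, against 11.1% of genes, and 2 were higher, against 10.1%. DESeq2 called 4 lower (4.45% of genes) and 1 higher (4.81%). The smallest p values were those of Hnrnpa2b1 (-0.20 ± 0.05, adjusted p = 0.059 by edgeR), Srsf2 (-0.22 ± 0.05, 0.0635) and Hnrnpu (-0.18 ± 0.04, 0.0687). The 2 higher genes were Hnrnpul1 (0.31 ± 0.10) and Hnrnpul2 (0.66 ± 0.23), relatives of Hnrnpu that act in the repair of DNA breaks.

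**Figure D2:**
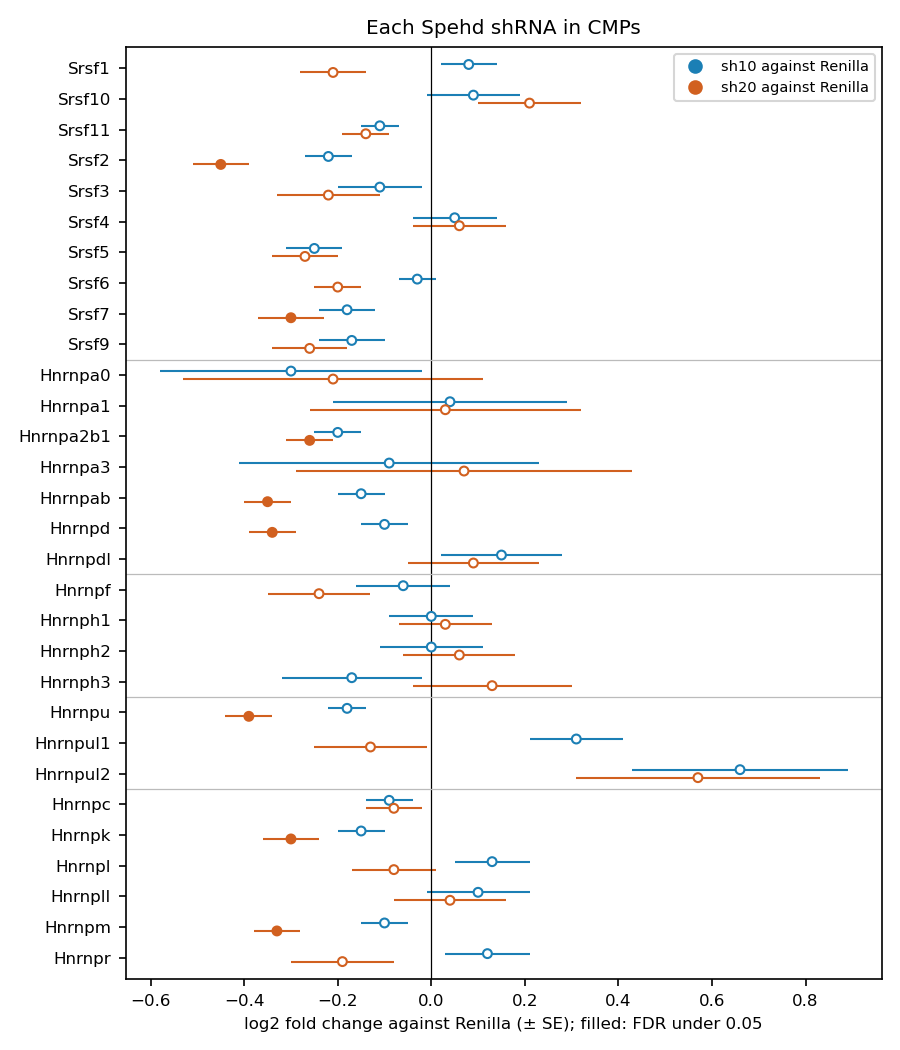
Log2 fold change against Renilla shRNA (± SE) of each tested gene in CMPs, with sh10 (3 libraries) in blue and sh20 (2 libraries) in orange; filled points passed an FDR of 0.05 in edgeR, and grey lines separate the subfamilies. The 8 filled points are all sh20 and all below 0, from -0.45 for Srsf2 to -0.26 for Hnrnpa2b1.

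The direct comparison of both shRNAs in CMPs called 4 genes lower with sh20 than with sh10 by edgeR, against 3.64% of genes, and none higher. They were Hnrnpd (-0.23 ± 0.05, adjusted p = 0.0388), Hnrnpm (-0.24 ± 0.06, 0.0428), Hnrnpu (-0.22 ± 0.05, 0.0443) and Srsf1 (-0.28 ± 0.07, 0.0456). DESeq2 called 7 lower, against 6.98%. Srsf1 stood at 491, 505, 495 and 434 CPM with Renilla, 521, 518 and 486 with sh10 and 411 and 415 with sh20. Its sh10 libraries lay within or above the Renilla range, and both sh20 libraries lay below all others. Hnrnpul1 had the largest difference that was not called, -0.45 ± 0.12 (adjusted p = 0.0568 by edgeR). It stood at 210, 273, 258 and 209 CPM with Renilla, 287, 301 and 300 with sh10 and 199 and 230 with sh20. Leaving out any 1 sh10 library brought the 4 calls to 0. Over all genes, 97 of 13609 were then called lower without replicate A, 58 of 13658 without B and 147 of 13638 without C. Leaving out sh20 replicate B or C leaves 1 sh20 library, and the median of the 30 genes was then -0.13 or -0.17, against -0.09 with all libraries. With library totals as a covariate 0 were called, against 325 of 15066 genes lower. Without a filter it was 1, against 745 of 29978, and with the offset 2, against 453 of 13742. With the replicate letter as a block it was 0, against 21 of 13824.

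Library depth moved with these results. With the log2 total of each library as a covariate in one fit of all 19, none of the 30 genes was called with sh20 in CMPs. Over all genes 18 of 15066 were called lower there and 2 higher, against 590 and 263 of 13824 in the fit of CMPs alone. Of the 30, 2 were lower at an unadjusted p under 0.05 by edgeR, as were 6.33% of all genes. The median of the 30 was -0.15 against -0.07 over all genes. The change of Srsf2 was then -0.11 (adjusted p = 0.707 by edgeR), that of Hnrnpab -0.08 (0.83) and that of Hnrnpu -0.27 (0.628). Marker genes of other cells moved too. The 7 red cell markers summed to 126 to 146 CPM with Renilla, 76 to 135 with sh10 and 207 to 232 with sh20 in CMPs. The 8 lymphoid markers summed to 54.3 to 118, 24.9 to 38.6 and 172 to 174 CPM, with the B cell gene Ms4a1 at 0 in both sh20 libraries, and the 12 CMP markers to 1826 to 2103, 2259 to 2507 and 1472 to 1766 CPM. The 6 platelet and megakaryocyte markers summed to 934 to 1452 CPM with Renilla, 696 to 880 with sh10 and 1120 to 1157 with sh20, and the 10 LSK markers to 1571 to 1740, 1549 to 1776 and 1168 to 1404 CPM. The 7 neutrophil markers stayed at 12 CPM or less in every CMP library. The part of these markers in the result was not tested. The 13 mitochondrially encoded genes, 7 of which passed the filter, summed to 985 to 1054 CPM with Renilla, 851 to 933 with sh10 and 861 to 877 with sh20.

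With both shRNAs pooled in CMPs, no SR or hnRNP gene passed an FDR of 0.05 in edgeR, where 0.0774% of the 12912 genes tested were called lower and 0.0387% higher. At an unadjusted p under 0.05, 11 of 30 were lower, against 8.25% of genes, and 1, Hnrnpul2, was higher, against 8.4%. DESeq2 called 7 lower, against 4.62%, and 1 higher, against 4.77%. By level alone, 10 genes had every knockdown library below every Renilla library, as had 6.37% of the genes tested, and Hnrnpul2 alone had every one above, as had 2.88%. The smallest p values belonged to Hnrnpa2b1 (-0.22 ± 0.05, adjusted p = 0.07 by edgeR), Srsf5 (-0.26 ± 0.06, 0.0786), Srsf2 (-0.31 ± 0.07, 0.0796), Hnrnpu (-0.26 ± 0.06, 0.0895), Hnrnpab (-0.23 ± 0.06, 0.106) and Hnrnpk (-0.21 ± 0.06, 0.114). Hnrnpul2 differed by 0.63 ± 0.21 (adjusted p = 0.162) from a low level, 20.4 ± 5.21 CPM with Renilla (SD, n = 4). With library totals as a covariate, 2 genes in place of 11 were lower at an unadjusted p under 0.05, as were 4.08% of all genes in that fit, and Hnrnpa2b1 turned to 0.01 (adjusted p = 0.998 by edgeR).

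The median by subfamily was -0.14 over the 10 SR genes, 8 of which had negative values, -0.19 over the 7 A/B and D genes, -0.02 over the 4 F/H genes and -0.04 over the 6 C, K, L, M and R genes, against 0.02 over all genes tested. The hnRNP U genes were split between Hnrnpu, at -0.26, and its relatives Hnrnpul1 (0.15 ± 0.13) and Hnrnpul2. By level, the 19 members averaging 200 CPM or more had a median of -0.16 and the other 11 one of 0.00, and over all 1087 genes as abundant the median was -0.02.

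**Figure D3:**
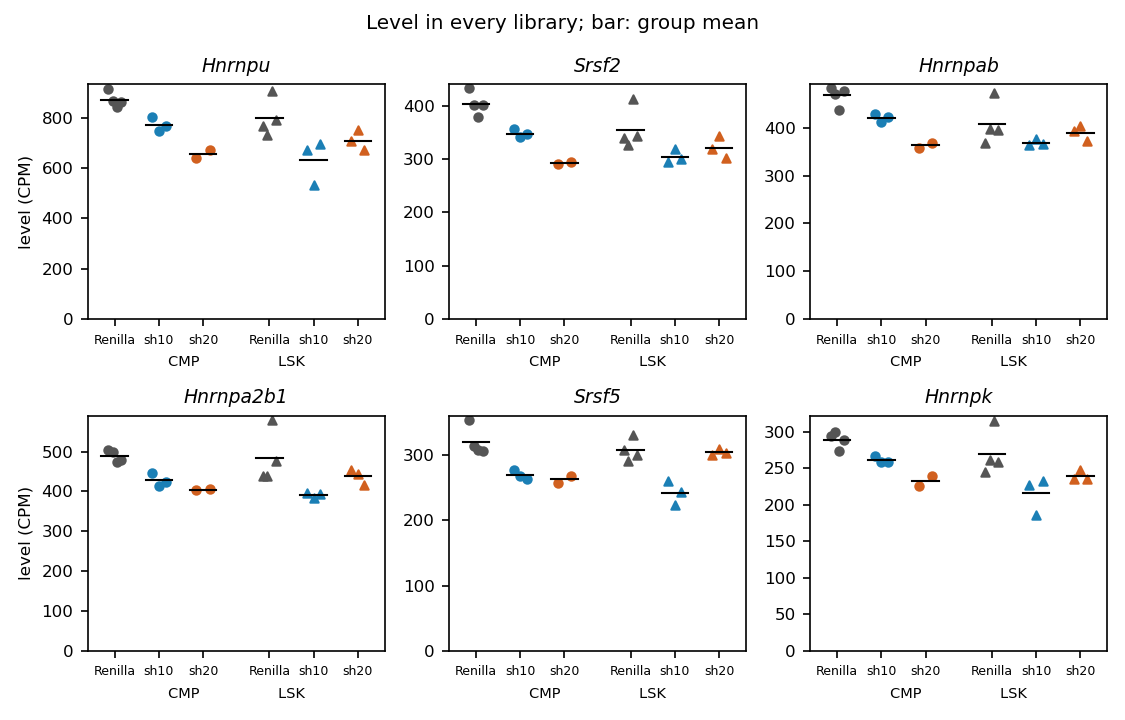
Levels in CPM in every library for the 6 genes with the smallest p in the pooled CMP comparison, by cell type and shRNA, with bars for group means; the axes start at 0. In CMPs each knockdown library lies below each Renilla library, while in LSK cells Renilla replicate C stands above the other 3, and the pooled sh10 and sh20 libraries overlap with Renilla.

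In LSK cells no member was called against Renilla, nor was any of the 13441 genes tested (edgeR). DESeq2 called no member and 0 of 30378 genes. At an unadjusted p under 0.05 by edgeR, 5 genes were lower, against 1.81% of genes, and none was higher. The 5 were Hnrnpu (-0.26 ± 0.09), Hnrnpk (-0.26 ± 0.09), Hnrnpa2b1 (-0.23 ± 0.09), Srsf2 (-0.19 ± 0.08) and Srsf7 (-0.18 ± 0.08), each with an adjusted p of 0.998. The median over the 30 genes was -0.13 and 24 values were negative, against a median of 0.00 over all genes. No member had all its knockdown libraries below the Renilla libraries, as 0.409% of genes had, or all above, as 0.521% had.

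One library weighs on these values. Hnrnpu stood at 766, 730, 905 and 789 CPM in LSK Renilla A to D, 673, 531 and 694 with sh10 and 707, 749 and 670 with sh20. Srsf2 stood at 339, 326, 412 and 343, then 295, 319 and 301, then 319, 343 and 302 CPM in those groups. Replicate C, the shallowest library, was the highest of the 4 Renilla libraries in both genes. Without it, 1 gene was lower at an unadjusted p under 0.05 and the median was -0.08.

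The same was seen in the other genes that fell in CMPs with sh20. Hnrnpa2b1 stood at 439, 440, 580 and 476 CPM in LSK Renilla A to D, 396, 384 and 394 with sh10 and 454, 445 and 417 with sh20. Hnrnpab stood at 368, 397, 472 and 395, then 363, 377 and 365, then 394, 403 and 373 CPM. Hnrnpk stood at 245, 261, 315 and 259, then 227, 186 and 233, then 235, 248 and 235 CPM. In all of these Renilla replicate C was the highest library of the cell type, as it was for Hnrnpd (332 CPM), Hnrnpm (448) and Srsf7 (412).

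Srsf5 stood at 309, 292, 331 and 301 CPM in LSK cells with Renilla, 261, 223 and 244 with sh10 and 301, 310 and 304 with sh20. Only sh10 lay below Renilla, by -0.34 ± 0.08 (adjusted p = 0.995 by edgeR). Srsf7 stood at 386, 361, 412 and 374 with Renilla, 334, 296 and 335 with sh10 and 360, 388 and 334 with sh20. With sh10 alone 7 genes were lower at an unadjusted p under 0.05 in LSK cells, against 1.45% of genes, and with sh20 alone it was 1, Hnrnpl, which binds CA repeats (-0.32 ± 0.10, adjusted p = 0.353), against 5.13%. DESeq2 called no member in either, against 3 of 30429 genes lower with sh10 and 148 lower and 47 higher of 16831 with sh20. Between the shRNAs in LSK cells no member was called by edgeR or DESeq2. DESeq2 called 151 genes lower and 105 higher of 17398 there, and edgeR called 0 of 13828 genes in each of these comparisons. Hnrnpl and Hnrnpa0 were lower with sh20 than with sh10 at an unadjusted p under 0.05, as were 5.36% of genes, and Srsf5 was higher, as were 3.81%.

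LSK sh10 replicate B differed from the other sh10 libraries in several of these genes. Srsf10, which represses splicing once dephosphorylated, stood at 57.8 CPM in it against 139 and 137, and Hnrnpll, known for CD45 splicing in lymphocytes, at 85.3 against 182 and 182. Srsf1 stood at 244 against 389 and 420, Hnrnph1 at 133 against 222 and 214, and Hnrnpr at 116 against 192 and 203. Hnrnpl, at 310, and Hnrnpa0, at 79.2, were highest in it. Without this library the median difference between sh20 and sh10 in LSK cells went from 0.08 to -0.01, and that between sh10 and Renilla from -0.15 to -0.07, while the count lower at an unadjusted p under 0.05 with sh10 went from 7 to 8. The 7 neutrophil markers summed to 4.44 to 311 CPM in LSK cells with Renilla, 64.7 to 283 with sh10, where replicate B was highest, and 6.43 to 12 with sh20. The 8 lymphoid markers summed to 62.5 to 72.8, 66.1 to 96.8 and 80.4 to 108 CPM in those groups, and the 10 LSK markers to 2618 to 2963, 1864 to 2636 and 2495 to 2528. Their part in these results was not tested.

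The knockdown effect was not shown to differ between cell types. In the test of the difference of both effects, none of the 30 genes passed an FDR of 0.05 in edgeR or DESeq2. Over all genes edgeR called 8 lower and 0 higher of 15066, and DESeq2 73 lower and 25 higher of 15696. None of the 30 had an unadjusted p under 0.05 by edgeR, against 6.49% of genes lower and 3.58% higher. The smallest p values were those of Hnrnpab (-0.15 ± 0.09, CMPs minus LSK cells, adjusted p = 0.549 by edgeR), Hnrnpul1 (0.26 ± 0.15, 0.553) and Srsf2 (-0.16 ± 0.10, 0.562). Hnrnpul1 stood at 261, 245, 221 and 237 CPM in LSK Renilla A to D, 212, 208 and 251 with sh10 and 246, 196 and 172 with sh20.

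**Figure D4:**
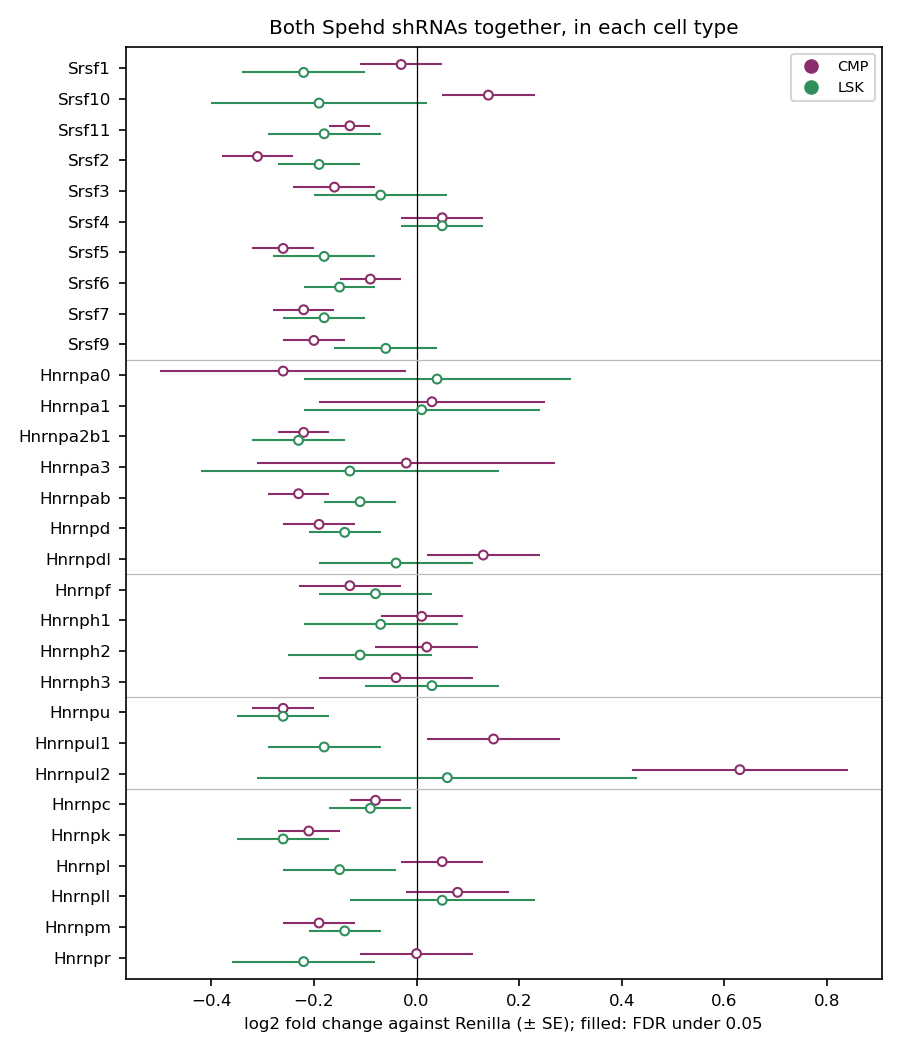
Log2 fold change of both Spehd shRNAs together against Renilla (± SE) for each tested gene, in CMPs (5 against 4 libraries, purple) and LSK cells (6 against 4, green). No point is filled, as none passed an FDR of 0.05 in edgeR; 19 of 30 values are negative in CMPs and 24 of 30 in LSK cells.

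Between the cell types under Renilla shRNA, 4 of the 30 genes had higher levels in CMPs at an FDR of 0.05 (edgeR, all 6 groups in one fit), against 11% of 15066 genes, and none was lower, against 8.73%. DESeq2 called 3 higher, against 11.3%. The share of members called was thus near that of all genes. The median was 0.13, with 25 values above 0, against -0.02 over all genes and 0.08 over those averaging 200 CPM or more. Leaving out any 1 of CMP Renilla A, B and D or LSK Renilla A, B and D left 1 call, where 1194 to 1338 of all genes were higher. With the offset by counts per exonic base, none was called, against 1315 of 14973 genes higher. The median was then 0.01, and also 0.01 over all genes. Without a filter 0 were called, against 1166 of 34578 genes. DESeq2 size factors gave 1, against 1504 of 15066, and the replicate letter as a block 1, against 1466 of 15066. The 7 red cell markers summed to 126 to 146 CPM in CMP Renilla libraries and 7.18 to 15.3 in LSK Renilla libraries (12.3 to 44.4 with sh10 and 9 to 112 with sh20 in LSK cells), and their part was not tested. These comparisons use the same Renilla libraries as the knockdown comparisons.

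Hnrnpc, which binds U tracts and keeps U2AF from cryptic exons, had the smallest p. It stood at 255, 252, 249 and 244 CPM in CMP Renilla A to D and at 201, 199, 228 and 201 in LSK Renilla A to D. It was 234, 245 and 230 in CMPs and 211, 178 and 199 in LSK cells with sh10, and 226 and 243 against 192, 198 and 197 with sh20. CMPs were above LSK cells under every shRNA without overlap, by 0.27 ± 0.07 with Renilla (adjusted p = 0.00881 by edgeR), 0.27 ± 0.08 with sh10 (0.0261) and 0.26 ± 0.09 with sh20 (0.0502).

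Srsf9 stood at 199, 193, 174 and 193 CPM in CMP Renilla libraries and 157, 153, 169 and 158 in LSK Renilla libraries, a difference of 0.25 ± 0.08 (adjusted p = 0.0428 by edgeR). It was 176, 168 and 164 in CMPs and 142, 177 and 136 in LSK cells with sh10, and 164 and 151 against 151, 162 and 156 with sh20. The cell types overlapped under both Spehd shRNAs. Hnrnpab (0.20 ± 0.07, adjusted p = 0.0449) and Hnrnpd (0.18 ± 0.06, 0.0474) were the other called genes. Hnrnpd stood at 283, 276, 332 and 294 CPM in LSK Renilla libraries, 272, 254 and 273 with sh10 and 285, 274 and 265 with sh20, so that LSK Renilla C lay within the CMP Renilla range.

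Hnrnpm and Srsf6 came next. Hnrnpm stood at 389, 387, 448 and 385 CPM in LSK Renilla libraries, 371, 314 and 370 with sh10 and 380, 402 and 363 with sh20, and differed by 0.19 ± 0.07 (adjusted p = 0.0531 by edgeR). Srsf6 (SRp55) stood at 384, 406, 374 and 383 CPM in CMPs and 327, 359, 341 and 347 in LSK cells with Renilla, a difference of 0.17 ± 0.07 (0.0762). It was 388, 382 and 370 against 332, 263 and 300 with sh10, and 336 and 332 against 309, 333 and 335 with sh20. By level alone, 6 genes had every CMP Renilla library above every LSK Renilla library (Hnrnpc, Hnrnpll, Srsf1, Srsf6, Srsf9 and Srsf11), as had 16.4% of genes.

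Under sh10, 8 genes were higher in CMPs by edgeR, against 7.51% of genes, and DESeq2 also called 8, against 7.27%. They were Srsf6 (0.35 ± 0.08), Srsf1 (0.53 ± 0.13), Srsf11 (0.39 ± 0.10), Hnrnpm, Hnrnpc, Hnrnpd, Hnrnpu and Hnrnpul1. Srsf1 stood at 389, 244 and 420 CPM in LSK sh10 libraries, 398, 379 and 355 with sh20 and 419, 429, 429 and 412 with Renilla. LSK sh10 replicate B was far below the others, but leaving it out also gave 8 calls, where 1412 of 14953 genes were higher. Leaving out CMP sh10 A, B or C gave 4, 3 and 5, against 732 of 15022, 597 of 15028 and 935 of 15034 genes. The offset gave 0, against 1000 of 14973. Under sh20, none was called by edgeR, against 1302 of 15066 genes lower and 895 higher. At an unadjusted p under 0.05 in edgeR, 2 were lower (16.6% of genes) and 1 was higher (12.7%). DESeq2 called 1 higher (6.83%). Their median stood at 0.23 under sh10 and at 0.04 under sh20, and whether the cell types differ more under one shRNA than another was not tested.

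**Figure D5:**
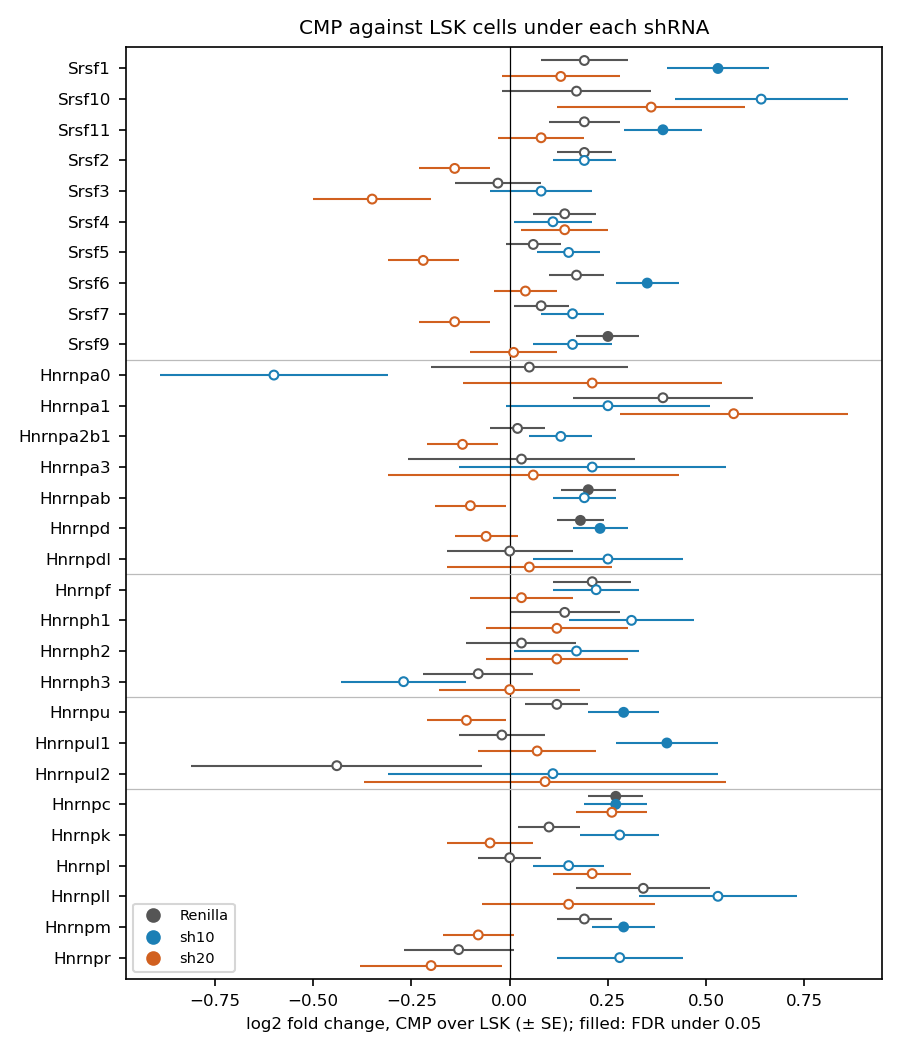
Log2 fold change of CMPs over LSK cells (± SE) for each tested gene under Renilla (4 against 4 libraries), sh10 (3 against 3) and sh20 (2 against 3) shRNA; filled points passed an FDR of 0.05 in edgeR. The filled points, 4 for Renilla and 8 for sh10, all lie above 0, and Hnrnpc lies between 0.26 and 0.27 under all 3.

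The other splicing genes were read from 9 lists. In CMPs with both shRNAs pooled, no gene of these lists passed an FDR of 0.05 in edgeR. The counts below are at an unadjusted p under 0.05, which 8.25% of all tested genes reached as lower and 8.4% as higher. The Sm core, the ring of proteins on spliceosomal snRNAs, had all 7 tested genes below 0 with a median of -0.26, and 5 of them at an unadjusted p under 0.05, led by Snrpb (-0.34 ± 0.07, adjusted p = 0.07) and Snrpd1 (-0.26 ± 0.11, 0.258). Among 17 U2 snRNP and U2AF genes 5 were lower and 1 was higher at that p, with Sf3a1 at 0.32 ± 0.07 (0.074) and Sf3b6 at -0.29 ± 0.07 (0.0857). Of 12 tri-snRNP genes 1 was lower and 4 were higher, with the core factor Prpf8 at 0.58 ± 0.12 (0.07) and Snrnp40 at -0.19 ± 0.05 (0.119).

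Among 16 tested hnRNP-type proteins outside the naming rule, 3 were lower and 5 higher at that unadjusted p, with the poly(C) binder Pcbp1 at -0.29 ± 0.07 (adjusted p = 0.0826 by edgeR) and Tardbp (TDP-43) at 0.31 ± 0.08 (0.106). Of 14 SR-related proteins 1 was lower and 3 were higher, with Scaf4 at 0.42 ± 0.11 (0.103) and the splicing activator Tra2b at -0.24 ± 0.09 (0.198). Of 15 tissue splicing regulators 1 was lower and 3 were higher, with Rbm39 at -0.24 ± 0.05 (0.07) and Qk at 0.38 ± 0.11 (0.116). The SR kinases, which phosphorylate the serine-rich tails, had 1 of 8 lower, Clk1 (-0.34 ± 0.13, 0.228), with Prpf4b next at 0.17 ± 0.12 (0.509). Of 8 U1 snRNP genes 1 was lower, Prpf39 (-0.29 ± 0.12, 0.262), with Snrpc at -0.25 ± 0.14 (0.436). Among 5 import and export partners the export adaptor Alyref stood at -0.32 ± 0.09 (0.116) and Tnpo1, a nuclear import receptor that carries hnRNP A1, at 0.60 ± 0.17 (0.124).

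DESeq2 did call genes of these lists in the pooled comparison, which it did for 4.62% of all genes as lower and 4.77% as higher. It called 4 U2 snRNP and U2AF genes lower and 1 higher, 1 tri-snRNP gene lower and 3 higher, 2 hnRNP-type genes lower and 1 higher, 1 Sm core gene lower, 1 SR-related gene higher, and 1 lower and 1 higher each among the tissue regulators and the import and export partners. Prpf8 (adjusted p = 0.000638), Snrpb (0.00132) and Sf3a1 (0.00293) had the smallest DESeq2 values among the genes named here.

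With single shRNAs in CMPs edgeR called more of these genes than with both pooled, as it did over all genes. It called 590 lower and 263 higher of 13824 with sh20 and 137 and 135 with sh10, against 10 and 5 of 12912 pooled. The genes named next were taken because they were called. With sh20, where 4.27% of all genes fell and 1.9% rose, Alyref fell by 0.53 on the log2 scale (SE 0.07, adjusted p = 0.0093), Snrpb by 0.45 (SE 0.07, 0.0093), Pcbp1 by 0.42 (SE 0.06, 0.0093) and Ewsr1, an RNA-binding relative of the hnRNPs, by 0.37 (SE 0.05, 0.0093). Puf60, Sf3b2 and Rbm39 fell by 0.25 to 0.29, while Sf3a1 (0.34 ± 0.09, 0.0466) and Tardbp (0.39 ± 0.10, 0.0498) rose. With sh10 none fell by edgeR, against 137 of 13824 genes. Tnpo1 (0.79 ± 0.15, adjusted p = 0.035) and the helicase Snrnp200 (0.56 ± 0.12, 0.0475) rose, against 0.977% of all genes. Between the shRNAs 8 were lower with sh20 (Alyref, Clk2, Ewsr1, Khdrbs1, Scaf1, Sf3a2, Sf3b2 and Tnpo2), against 3.64% of genes, by 0.23 for Ewsr1 to 0.87 for Tnpo2, and none was higher.

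Between CMPs and LSK cells with Renilla shRNA, some of these genes passed an FDR of 0.05, which 11% of all genes reached as higher in CMPs and 8.73% as lower. Of 17 U2 snRNP and U2AF genes 5 were higher in CMPs by edgeR, led by Phf5a (0.78 ± 0.12, adjusted p = 0.000349) and Snrpa1 (0.45 ± 0.10, 0.00339). Of the Sm core 1 of 7 was higher, Snrpd1 (0.47 ± 0.13, 0.0161), with Snrpd2 at 0.42 ± 0.15 (0.0541), and all 7 values were above 0 with a median of 0.40. Of 12 tri-snRNP genes 3 were higher, Snrnp40 (0.26 ± 0.07, 0.0163) and Eftud2 (0.21 ± 0.07, 0.0422) first.

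The kinase Srpk2 was lower in CMPs (-0.73 ± 0.22, adjusted p = 0.0256 by edgeR), and Clk3 stood at 0.06 ± 0.11 (0.764). Among the tissue regulators Elavl1 (HuR) was higher (0.36 ± 0.07, 0.00237) and Celf2 lower (-0.44 ± 0.10, 0.0057). Pcbp1 (0.21 ± 0.06, 0.0258) and Alyref (0.26 ± 0.07, 0.0222) were higher, and Nxf1, the export receptor, stood at 0.17 ± 0.08 (0.164). No U1 or SR-related gene passed, with Snrpa at 0.25 ± 0.10 (0.0875), Snrpc at 0.24 ± 0.15 (0.281), Acin1 at -0.36 ± 0.13 (0.0575) and Rnps1 at 0.24 ± 0.10 (0.0902).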

How the data were processed

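RNA of 19 libraries of sorted mouse cells was sequenced after SMART-Seq v4 cDNA synthesis. As deposited by the authors, each library is a table of whole read counts per gene without normalization, made with STAR on mm10, Picard duplicate removal and HTSeq on a GENCODE annotation (per the submitters' processing notes and the paper's methods). HTSeq counts by strand unless told otherwise, and whether the kit kept the strand is not given in the sources used here. From 52.3% to 54.3% of the reads that were either on a gene or on none lay on no gene. Those rows, and the rows for ambiguous and multiply aligned reads, were left out. A deposited table of normalized counts was not used here.

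Counts were tested with edgeR 4.0.16 (glmQLFit and glmQLFTest, TMM, filterByExpr with a minimum of 10 counts and a total of 15) over all genes of a fit, with Benjamini-Hochberg adjustment over all of them and a threshold of 0.05. DESeq2 1.42.0 was an alternative. Pooled knockdown was fitted within a cell type, single shRNAs with all 3 groups of a cell type, and cell types with all 6 groups. CPM uses TMM over the 19 libraries. Library totals ranged from 3647318 to 5965155. Scripts were tested on simulated data.

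Every member is accounted for. Values in every library are given for the 6 smallest p in the pooled CMP comparison and in CMP against LSK with Renilla, the 3 smallest with each shRNA in CMPs and in the difference of effects, and the 5 highest counts per exonic base. The lists of other splicing genes name the 2 smallest p each, except 1 gene, not called, that is not reported here. Those called with single shRNAs in CMPs were chosen after their values were seen. Members and lists were chosen with earlier results of these data known. Alternatives were DESeq2 size factors, no filter, DESeq2, the replicate letter as a block, library totals as a covariate, an offset by counts per exonic base, and leaving out each library. Promoters came from RefSeq tables, lengths and UTRs from GENCODE vM21, a later release than the one the authors counted on, matched by symbol to 53669 of 54352 genes.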

Additional observations from a re-analysis of the deposited data

Results flagged for a closer look

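In LSK cells with Renilla shRNA, replicate C stood far from the other 3 libraries for 2 genes, by Dixon's test of the gap to the nearest library. Hnrnpc was at 228 CPM there and at 199 to 201 in the others, and Hnrnpm at 448 against 385 to 389. These were the only such cases among 62 sets of 4 libraries (30 genes and their summed share in 2 groups), and chance gives about 1 in 20. Replicate C is the library with the fewest counts.

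In CMPs the effect differed between the shRNAs by edgeR's test of sh20 against sh10 for Hnrnpd (-0.23, adjusted p = 0.0388), Hnrnpm (-0.24, 0.0428), Hnrnpu (-0.22, 0.0443) and Srsf1 (-0.28, 0.0456). None of the 4 was called without any 1 of sh10 replicates A, B and C, with library totals as a covariate, or with the replicate letter as a block. The block called 21 of 13824 genes lower and 7 higher.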

How the results depend on the processing

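Counts of members past an FDR of 0.05 moved by over 1.5 times in these cases. With DESeq2 they were 8 for the pooled knockdown in CMPs and 5 for sh10 in CMPs (0 each in edgeR), 7 for sh20 against sh10 in CMPs and 1 for CMPs against LSK cells with sh20. Without a filter they were 5 for sh20 in CMPs, 1 for sh20 against sh10 in CMPs, and 0 with Renilla and 3 with sh10 for CMPs against LSK cells. DESeq2 size factors gave 1 for CMPs against LSK cells with Renilla. With the offset they were 4 for sh20 in CMPs, 2 for sh20 against sh10, and 0 with Renilla and 0 with sh10 between cell types, and the member medians were -0.06 for sh20 in CMPs and 0.01 between cell types with Renilla. With library totals as a covariate they were 0 for sh20 in CMPs, 0 for sh20 against sh10 and 2 between cell types with Renilla. Calls over all genes moved too. For sh20 in CMPs 590 of 13824 genes were lower in the fit used above and 292 of 13742 with the offset. With library totals as a covariate it was 18 of 15066. The cause was not tested.

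Hnrnpa2b1 turned to 0.01 in the pooled knockdown in CMPs with library totals as a covariate, and Hnrnpab to 0.02 in the difference of effects with the offset. Leaving out each library gave 5 to 10 calls for sh20 in CMPs (5 without Renilla B, 5 lower and 1 higher without sh20 B), 0 to 6 for sh20 against sh10 (0 without sh10 A, B or C or sh20 B), 1 to 5 with Renilla (1 without any of CMP Renilla A, B or D or LSK Renilla A, B or D, 5 without LSK Renilla C) and 3 to 11 with sh10 between cell types (3 without CMP sh10 B, 4 without A, 5 without C). Where a group is left with 1 library, that library is assumed to vary like the others.

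Equal replicate letters were not taken to pair libraries. Deviations of same-letter libraries correlated between -0.0792 and 0.0444 within a cell type (16 pairs). Across cell types under 1 shRNA it was -0.000694 to 0.21 (9 pairs, median 0.0522, against -0.0269 for unlike letters), so not every pair was above 0.1. With the replicate block the count was 0 for sh20 in CMPs, where 0 of 13824 genes were called. For sh20 against sh10 in CMPs it was 0, where 21 of 13824 genes were lower and 7 higher. For CMPs against LSK cells with Renilla it was 1, where 1466 of 15066 genes were higher. All other medians stayed within the spread and all other counts at an FDR of 0.05 within 1.5 times. Counts lower at an unadjusted p under 0.05 moved more, among others with totals as a covariate from 11 to 2 in pooled CMPs, 9 to 1 for sh10 and 13 to 2 for sh20, and from 10 to 6 for sh20 against sh10, with the offset from 11 to 7 in pooled CMPs and 9 to 4 for sh10, without a filter from 9 to 5 for sh10, and with the replicate block from 5 to 2 in pooled LSK cells. The depth limits the rarest members: Hnrnpa3 averaged 9 CPM.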
